A study of Homo sapiens with 2 samples.

Results

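The genes described here are the D-type cyclins CCND1, CCND2 and CCND3, their kinases CDK4 and CDK6, the inhibitors CDKN1B, CDKN1C, CDKN2C and CDKN2D, and RB1, the protein that these kinases phosphorylate. They are listed by name, a rule that uses no measured value but was set with earlier results of these data known, and are 10 of the 33538 genes counted. Of the 10 genes, 9 had a UMI (unique molecular identifier, a tag that marks 1 captured RNA molecule) in the cells used, and CCND2 had none.

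The cells were untreated SH-SY5Y, an established human neuroblastoma line, which had not been synchronized. One culture was divided into 2 flasks, SplitA and SplitB, whose cells were tagged with Hashtag-1 and Hashtag-2 antibodies, pooled and sequenced in 1 CITE-seq experiment, a method that counts RNA and antibody tags of the same cells. A cell was given to a flask when its hashtag had at least 3 times the counts of the other and the other had at most 185, and it was kept with at least 1000 genes. This left 899 cells of SplitA with 5852780 UMIs (median 6063 per cell, 1948 to 27205) and 1195 cells of SplitB with 8066440 UMIs (median 6346, 1801 to 27006).

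D-type cyclins are made in response to growth signals and bind CDK4 or CDK6, and the complex phosphorylates RB1, which then releases the E2F factors that drive genes of S phase. Inhibitors of the INK4 family, to which CDKN2C and CDKN2D belong, bind the kinases themselves, whereas those of the CIP/KIP family, CDKN1B and CDKN1C, bind complexes of cyclin and kinase. Neuroblastoma is known for high CCND1 RNA, and drugs against CDK4 and CDK6 have been tried in this tumor.

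Both flasks had the same condition and came from 1 culture, so no test between conditions was possible, and with 1 flask against 1 flask no p-value was computed. Cells of a flask were not treated as replicates. Levels are CPM, a gene's UMIs divided by all UMIs of the same cells and multiplied by 1000000, with exact Poisson 95% intervals. Shares of cells have exact binomial (Clopper-Pearson) 95% intervals, and all intervals cover counting error only. A UMI was counted once per molecule from its 3′ end, so levels were not divided by transcript length, and a level compared between genes is one of captured molecules. No other cell type was in the library, so the level that free RNA gives in cells without expression of a gene could not be measured.

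The label of the cells was checked against marker genes. All 12 adrenergic neuroblast markers had UMIs, 10 of the 12 in at least 10% of the cells of both flasks, with a summed level of 3710 CPM in SplitA and 3572 CPM in SplitB. The 5 mesenchymal markers reached 14.0 and 14.4 CPM together, with PRRX1 at 0, and SOX10, PTPRC, CD3E, PECAM1 and CDH5 were at 0 in both flasks. Other markers of these lists had a few UMIs. The 4 Schwann cell markers had 32 UMIs together in SplitA and 39 in SplitB, and the 2 epithelial markers 13 and 16. The 3 leukocyte markers had 0 and 6 UMIs. None of the markers of these lists was found in 10% of cells. In SplitA, 41.0% of the cells were scored as G1, 30.7% as S and 28.3% as G2M, and in SplitB 42.3%, 29.1% and 28.6%.

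CCND1, encoding cyclin D1 (GRCh38, chr11:69641156-69654474, plus strand), was by far the most abundant of the 10 genes. Its level was 708 CPM in SplitA (686 to 729) and 650.3 CPM in SplitB (633 to 668), rank 175 and 189 among all genes. A UMI was found in 92.2% of SplitA cells (90.3% to 93.9%) and 91.3% of SplitB cells (89.6% to 92.8%). The median cell of either flask had 4 CCND1 UMIs (quartiles 2 and 6), and the highest counts were 33 and 30. CCND1 was thus counted repeatedly in most cells, and the few cells without it had about the same depth as the others. The 70 SplitA cells with no CCND1 UMI had a median of 6002.5 UMIs in all, against 6067 in the others, and the 104 such cells of SplitB had 6396, against 6339.

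The other D cyclins were scarce or not detected. CCND3, encoding cyclin D3 (chr6:41934934-42050357, minus strand), had 17.3 CPM in SplitA (14.1 to 21.0) and 15.5 CPM in SplitB (12.9 to 18.5), with a UMI in 10.0% and 9.62% of cells. CCND1 had 41.0 times as many UMIs as CCND3 in SplitA (33.7 to 50.5) and 42.0 times as many in SplitB (35.1 to 50.5). CCND2, encoding cyclin D2 (chr12:4269771-4305353, plus strand), had no UMI in 899 and 1195 cells. A count of 0 allows up to 0.513 CPM, or a UMI in 0.334% of cells, in SplitA, and 0.372 CPM or 0.251% of cells in SplitB.

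CDK4 and CDK6, the partners of the D cyclins, were present side by side at like levels. CDK4 (chr12:57747727-57756013, minus strand) had 179.9 CPM in SplitA (169 to 191) and 168 CPM in SplitB (159.5 to 178), and CDK6 (chr7:92604921-92836573, minus strand) had 205 CPM (194 to 217) and 213 CPM (203 to 223). The share of cells with a UMI was 63.8% and 61.9% for CDK4, and 66.1% and 66.5% for CDK6. CDK6 exceeded CDK4 in both flasks by a small ratio, 1.14 in SplitA (1.05 to 1.24) and 1.26 in SplitB (1.18 to 1.36). The CDK6 gene overlaps CDK6-AS1 on the opposite strand, which had 798 UMIs in the kept cells. The CDK4 gene overlaps 2 counted genes on the opposite strand, which had 712 UMIs together. The reads of the 3′ kit carry the strand, and no member overlaps another counted gene on its own strand.

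Each of the 4 inhibitors was found, at levels below those of the kinases. CDKN2C, an INK4 inhibitor also called p18 (chr1:50960745-50974634, plus strand), was the highest of them with 91.4 CPM in SplitA (83.8 to 99.5) and 81.6 CPM in SplitB (75.5 to 88.1), and was found in 39.5% and 37.7% of cells. CDKN1C, the CIP/KIP inhibitor p57 from an imprinted locus (chr11:2883213-2885775, minus strand), had 70.1 CPM (63.4 to 77.2) and 74.9 CPM (69.0 to 81.1), in 29.5% and 29.9% of cells. CDKN1B, the CIP/KIP inhibitor p27 (chr12:12685498-12722369, plus strand), had 31.8 CPM (27.4 to 36.7) and 28.6 CPM (25.1 to 32.6). CDKN2D, the INK4 inhibitor p19 (chr19:10566460-10569059, minus strand), had 32.0 CPM (27.5 to 36.9) and 32.1 CPM (28.3 to 36.3). CDKN1B and CDKN2D therefore did not differ beyond counting error in either flask. Within families, CDKN2C had 2.86 times the UMIs of CDKN2D in SplitA and 2.54 times in SplitB, and CDKN1C had 2.20 and 2.61 times those of CDKN1B.

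RB1 (chr13:48303744-48599436, plus strand), the pocket protein at the end of the pathway, had 28.5 CPM in SplitA (24.4 to 33.2) and 25.4 CPM in SplitB (22.1 to 29.1), with a UMI in 15.8% and 15.6% of cells. From high to low, the order in both flasks was CCND1, CDK6, CDK4, CDKN2C, CDKN1C, then CDKN2D, CDKN1B and RB1 with overlapping intervals, then CCND3. The intervals of CDKN2C and CDKN1C also overlapped in SplitB. Detection followed depth: with every cell thinned to 2000 UMIs, CCND1 was found in 71.2% of SplitA cells and 68.3% of SplitB cells, CDK6 in 32.0% and 33.5%, and RB1 in 5.46% and 5.78%. The plot of levels and detection by flask gives both readings.

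**Figure D1:**
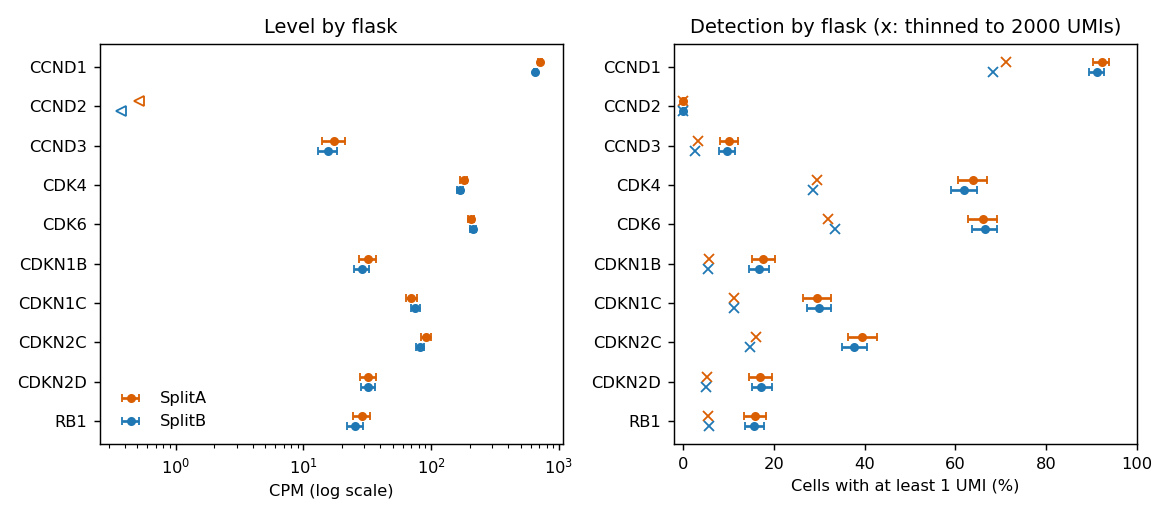
Left, level of the 10 genes in CPM on a log scale with exact Poisson 95% intervals, in SplitA (orange) and SplitB (blue), and open triangles at the limit that a count of 0 allows for CCND2. Right, percent of cells with at least 1 UMI with exact binomial 95% intervals, and crosses for the same share after thinning every cell to 2000 UMIs. CCND1 stands apart at 708 and 650.3 CPM, and the points of the flasks lie close together for every gene.

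The flasks differed little. The ratio of SplitA to SplitB ranged from 0.936 for CDKN1C (0.823 to 1.06) to 1.12 for RB1 (0.910 to 1.38), and 0 of the 9 detected genes were 1.5-fold or more apart, against 0.374% of the 7756 genes with at least 50 UMIs in each flask. CCND1 was 1.09 times as high in SplitA as in SplitB, with a counting interval of 1.04 to 1.13. Whether this exceeds the spread between flasks cannot be said from 1 flask on each side.

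The spread between cells went beyond counting noise for a part of the genes. It was measured as the variance of a gene's counts over the variance that counting alone gives at the depth of each cell, where a ratio of 1 means no further spread. CDKN1C had the highest ratio, 2.04 in SplitA and 2.17 in SplitB, followed by CCND1 with 1.76 and 1.70. CDK6 had 1.28 and 1.29, and CDKN2D 1.22 and 1.23. These 4 of the 9 genes reached a ratio of 1.2 in both flasks, against 7.14% of all genes, whose median was 1.04 in both flasks. The genes behind this share were not matched to the 9 by level. CDKN2C lay at the limit with 1.19 and 1.22, and CCND3, CDK4, CDKN1B and RB1 ranged from 0.982 to 1.13. The UMI counts per cell show the tail of CDKN1C. It had no UMI in 634 SplitA cells and 838 SplitB cells, while 27 and 50 cells had 3 or more, up to 14 and 10. With cells thinned to 2000 UMIs, where the counts are smaller, only CCND1 of the 4 genes still reached 1.2 in both flasks, with 1.68 and 1.47. CDKN1C then had 1.09 and 1.39, and CDK6 0.997 and 1.06. CDKN2D also fell short of 1.2 with a minimum of 1500 genes and without cells over 15000 UMIs, where CDKN2C reached it.

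**Figure D2:**
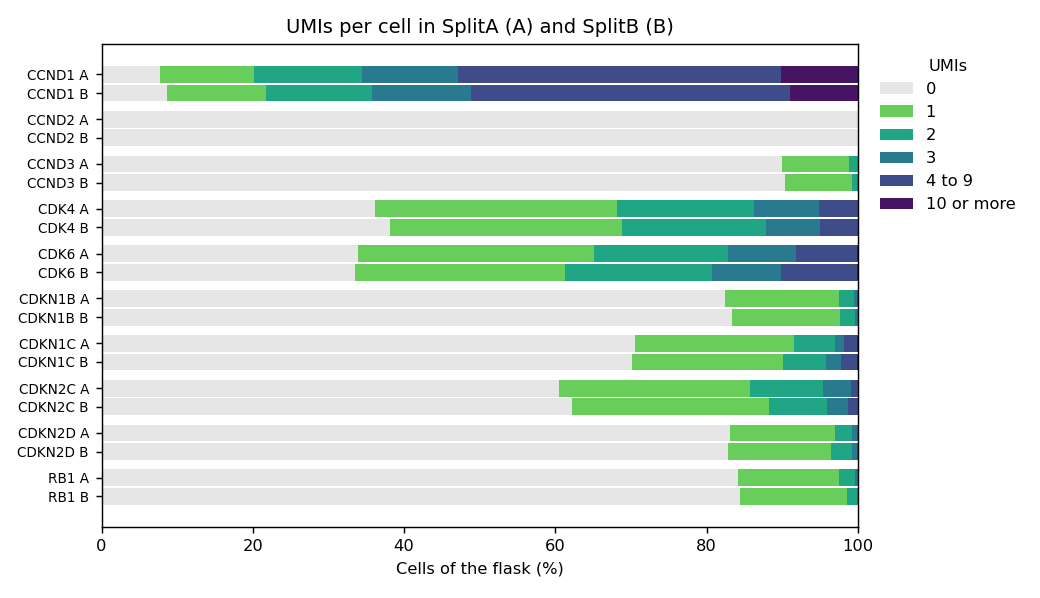
Percent of the cells of each flask with 0, 1, 2, 3, 4 to 9, and 10 or more UMIs of each gene, as stacked bars for SplitA (A) and SplitB (B). CCND1 reaches 4 or more UMIs in many cells, CDK4 and CDK6 are mostly at 0 to 3, CCND2 is at 0 throughout, and the inhibitors, RB1 and CCND3 are at 0 in most cells.

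The relation of the genes to the cell cycle was read from phases scored with 42 S and 52 G2M genes found in the counts, a list that holds none of the 10 genes. A cell with neither score positive is called G1, so this class also holds any cells outside the cycle. The paper relates the confluence at sequencing to a decreased growth rate, and G1 cells were not told apart from resting cells here. Between phases, the inhibitors differed most, and in opposite directions. CDKN1C was highest in G1 cells, whereas CDKN2C, CDKN2D and CDKN1B were highest in G2M cells, and CCND1, CDK4 and CDK6 differed by at most 1.58-fold. The promoters of the 3 inhibitors that were highest in G2M are shown here because promoters of genes with this timing often carry CCAAT boxes, the CHR element or E2F sites. They were taken from RefSeq on GRCh38.p14, are written 5′ to 3′ on the strand of the gene and end before a transcription start, and capitals mark the matches. CDKN1B is chr12:12717118-12717367 (plus strand), CDKN2C is chr1:50969995-50970244 (plus strand, before the third of its starts), and CDKN2D is chr19:10569060-10569229 (minus strand), where 80 bases that lie in an annotated exon were left out.
CDKN1B: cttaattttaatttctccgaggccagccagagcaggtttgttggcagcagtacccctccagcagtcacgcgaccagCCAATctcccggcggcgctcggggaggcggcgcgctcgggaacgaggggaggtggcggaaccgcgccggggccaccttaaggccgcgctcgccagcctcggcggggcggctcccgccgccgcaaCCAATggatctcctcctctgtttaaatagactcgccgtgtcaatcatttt
CDKN2C: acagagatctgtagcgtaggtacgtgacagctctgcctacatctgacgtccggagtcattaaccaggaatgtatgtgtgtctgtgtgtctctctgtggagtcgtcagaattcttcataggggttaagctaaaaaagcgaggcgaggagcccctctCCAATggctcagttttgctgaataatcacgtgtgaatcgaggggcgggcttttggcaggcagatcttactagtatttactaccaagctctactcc
CDKN2D: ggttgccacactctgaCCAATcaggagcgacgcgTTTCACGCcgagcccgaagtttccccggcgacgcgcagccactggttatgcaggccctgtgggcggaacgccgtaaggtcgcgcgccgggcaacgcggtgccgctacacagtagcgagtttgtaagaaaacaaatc

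Of the 10 genes, 7 had an entry in the promoter table, and 250 bases before each start were searched on both strands for CCAAT, for the CHR letters TTTGAA and for the E2F letters TTTNNCGC, where N is any base and no match overlapped another. CDKN1B had 2 CCAAT matches. CDKN2C had 1 before this start and none before its other starts, and CDKN2D had 1 CCAAT and 1 E2F match, read as TTTCACGC. CCND3, which was not past the limit in G2M cells, had 1 CCAAT match before each of 2 of its 3 starts. CDK4 and CDK6 had no match, nor had the only RB1 entry, chr13:48476200-48476449. That entry lies far downstream of the RB1 gene start at 48303744, and the bases before that start were not searched. The entries of CDKN1B, CCND3, RB1 and CDK4 lie inside these genes as annotated. So do the shown entry of CDKN2C and an entry of CDK6, whereas the shown bases of CDKN2D lie outside its gene. Of 35116 promoters of this length, 32.0% held CCAAT, 13.3% the CHR letters and 5.92% the E2F letters. These are shares of single starts, whereas CDKN2C is shown at the only one of its starts that held a match. None of the 3 promoters held the CHR letters. A match is a string of letters and not a measured binding site.

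CDKN1C was lower in S and in G2M cells than in G1 cells in both flasks. Its level was 104 CPM in G1 cells of SplitA (91.4 to 118), 34.1 CPM in S cells (25.8 to 44.2) and 59.7 CPM in G2M cells (49.1 to 71.9). In SplitB it was 127 CPM (115 to 139), 33.0 CPM (25.9 to 41.4) and 41.7 CPM (34.0 to 50.6). The intervals of G1 did not overlap those of S or G2M in either flask. The ratio of S to G1 was 0.328 in SplitA (0.241 to 0.439) and 0.260 in SplitB (0.200 to 0.333). That of G2M to G1 was 0.574 (0.454 to 0.721) and 0.329 (0.262 to 0.409). The G2M to G1 intervals of the flasks did not overlap, and whether the flasks differ in this ratio was not tested. CDKN1C was 1 of 9 genes that were 1.5-fold or more lower in S than in G1 cells in both flasks, against 2.09% of 7673 genes outside the cycle list. It was also 1 of 9 lower in G2M cells, against 3.73%. Cells with at least 3 CDKN1C UMIs were mostly in G1, 19 of 27 in SplitA (70.4%, 49.8% to 86.2%) and 44 of 50 in SplitB (88.0%, 75.7% to 95.5%). The median depth of these cells was 7569 and 7747.5 UMIs.

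CDKN2C, CDKN2D, CDKN1B and RB1 were higher in G2M than in G1 cells in both flasks by 1.5-fold or more, 4 of 9 genes against 11.8% of all genes. CDKN2C had 52.5 CPM in G1 cells of SplitA (43.6 to 62.7), 84.4 CPM in S cells (71.1 to 99.6) and 146 CPM in G2M cells (129 to 165). In SplitB it was 50.7 CPM (43.4 to 58.9), 75.7 CPM (64.8 to 88.0) and 129.5 CPM (116 to 145). G1 was lowest and G2M highest in both flasks, with no overlap of intervals between phases. The G2M to G1 ratio of CDKN2C was 2.79 (2.24 to 3.48) and 2.56 (2.12 to 3.10). Of the cells with at least 3 CDKN2C UMIs, 35 of 42 in SplitA (83.3%) and 37 of 49 in SplitB (75.5%) were in G2M. These cells had medians of 7335.5 and 8580 UMIs in all, above the 6063 and 6346 of the kept cells. Their share in G2M was not adjusted for depth.

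CDKN2D, the other INK4 inhibitor, had 21.1 CPM in G1 cells of SplitA (15.6 to 27.9), 22.8 CPM in S cells (16.1 to 31.2) and 53.8 CPM in G2M cells (43.8 to 65.4). In SplitB it had 17.8 CPM (13.6 to 22.9), 24.95 CPM (18.8 to 32.4) and 58.4 CPM (49.2 to 68.8). The G1 and S intervals overlapped in both flasks and those of G2M lay above both. The ratio of S to G1 was 1.08 (0.687 to 1.68) and 1.40 (0.957 to 2.05), against 1.61 (1.25 to 2.07) and 1.49 (1.202 to 1.86) for CDKN2C, with intervals of the genes that overlapped in both flasks. The ratio of G2M to G1 for CDKN2D was 2.55 (1.80 to 3.67) and 3.29 (2.41 to 4.52).

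CDKN1B, known for control by protein breakdown, also had its highest RNA level in G2M cells. It had 17.2 CPM in G1 cells of SplitA (12.3 to 23.4), 32.3 CPM in S cells (24.3 to 42.2) and 49.5 CPM in G2M cells (39.9 to 60.7). In SplitB it had 21.6 CPM (17.0 to 27.2), 25.4 CPM (19.2 to 32.9) and 41.3 CPM (33.6 to 50.1). The S and G2M intervals overlapped in SplitA and not in SplitB. The ratio of G2M to G1 was 2.88 (1.96 to 4.28) and 1.91 (1.40 to 2.61), and with cells thinned to 2000 UMIs the log2 ratio of SplitB was 0.25, below the limit. RB1 had the smallest G2M to G1 difference of the 4 genes, a ratio of 1.77 (1.21 to 2.62) and 1.68 (1.19 to 2.39). It went from 20.7 CPM in G1 to 36.6 CPM in G2M cells of SplitA and from 18.7 to 31.5 CPM in SplitB. Its S to G1 ratio was 1.48 in SplitA (0.977 to 2.24) and 1.55 in SplitB (1.08 to 2.23). Its G2M to S ratio was 1.198 in SplitA (0.821 to 1.76) and 1.086 in SplitB (0.771 to 1.53). RB1 therefore did not differ beyond counting error between S and G2M cells in either flask.

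Cells in G2M were deeper, with a median of 7077.5 UMIs in SplitA and 6969 in SplitB, against 5830 and 6130 in G1 cells. CPM is relative to depth, and the median log2 ratio of G2M to G1 over all genes was 0.15 in SplitA and 0.12 in SplitB. Relative to this median, the log2 ratios of CDKN2C were 1.33 and 1.23, those of CDKN2D 1.21 and 1.59, those of CDKN1B 1.38 and 0.81, those of RB1 0.68 and 0.63, and those of CDKN1C -0.95 and -1.73. The count of 4 genes higher and 1 lower was the same on this scale, against 8.22% and 6.15% of all genes. The median log2 ratio of the 9 genes themselves was 0.40 and 0.28.

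Against S cells, CDKN1B, CDKN2C and CDKN2D were higher in G2M cells in both flasks, 3 of 9 genes against 2.68% of all genes. The ratios were 1.53 and 1.62 for CDKN1B, 1.73 and 1.71 for CDKN2C, and 2.36 and 2.34 for CDKN2D. Relative to the median of all genes, CDKN1B was at a log2 ratio of 0.58 in SplitA, just under the limit, and 2 of 9 genes were past it and 0 below, against 2.45% and 1.02%. No gene of the 9 was lower without this adjustment, against 0.860%.

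The cyclins and kinases differed less between phases. CCND1 had 599 CPM in G1, 770.0 in S and 788 in G2M cells of SplitA, and 568, 730.3 and 691 CPM in SplitB. Its ratio of S to G1 was 1.29 in each flask (1.19 to 1.39 and 1.204 to 1.38). CDK4 was highest in S cells, with 145, 228 and 181 CPM in the 3 phases of SplitA and 143, 202 and 172 CPM in SplitB. Its S to G1 ratio was 1.58 in SplitA (1.36 to 1.83) and 1.41 in SplitB (1.24 to 1.61), and 0 of the 9 genes were higher by 1.5-fold or more in S cells of both flasks, against 7.90% of all genes. With 1 flask alone, CDK4, CDKN1B and CDKN2C (3 genes) were past the limit in SplitA, and CCND3 and RB1 (2 genes) in SplitB. CDKN2C lay just under the limit in SplitB, with a ratio of 1.49. For CDK6 the S to G1 ratio was 1.27 in SplitA (1.10 to 1.47) and 1.07 in SplitB (0.948 to 1.197). CCND3 had 0.928 (0.564 to 1.51) and 1.71 (1.11 to 2.64), from 30 to 49 UMIs a class. For both genes the intervals of the flasks overlapped. Whether the flasks differ there was not tested.

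**Figure D3:**
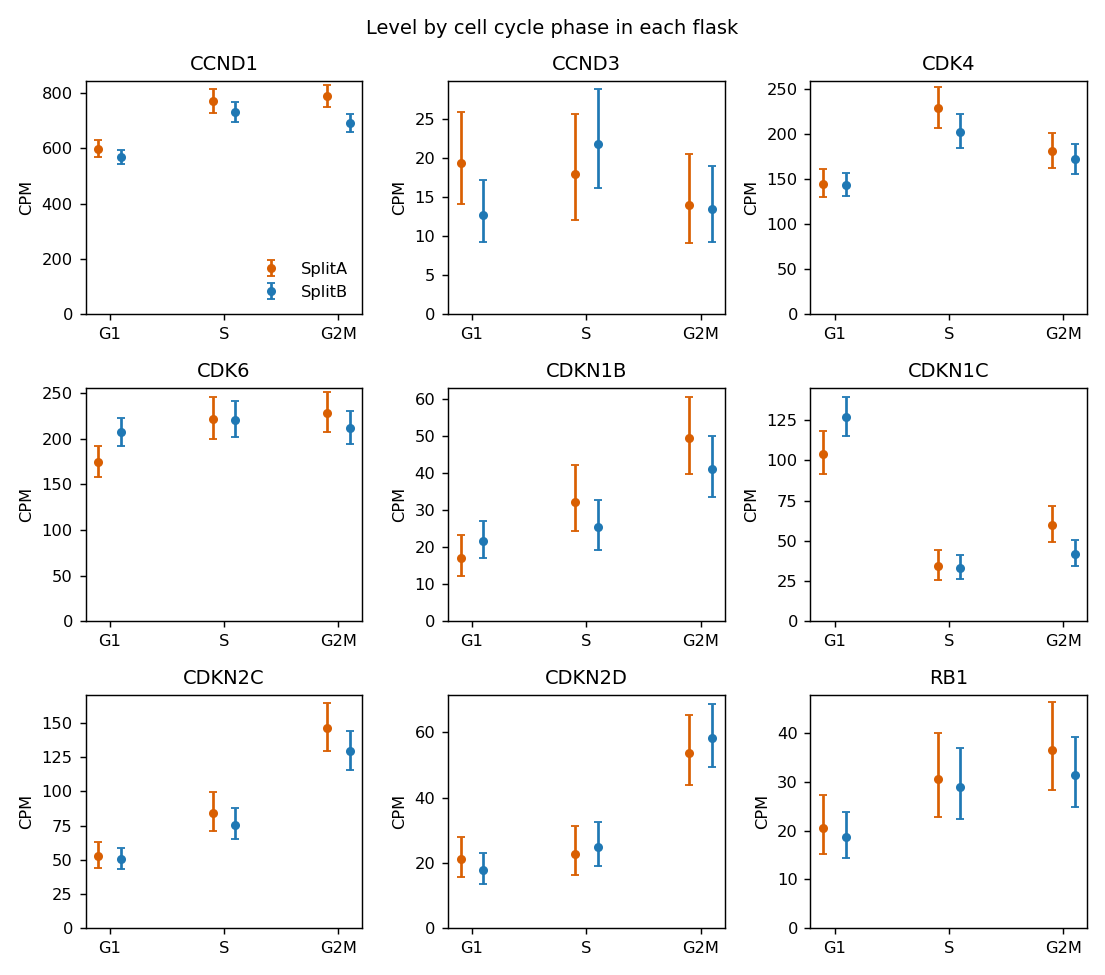
Level of each of the 9 detected genes in CPM (each axis from 0) in cells scored as G1, S and G2M, in SplitA (orange) and SplitB (blue), with exact Poisson 95% intervals. CDKN1C is highest in G1 (104 and 127 CPM), CDK4 in S (228 and 202 CPM), and CDKN1B, CDKN2C and CDKN2D are highest in G2M, in both flasks.

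**Figure D4:**
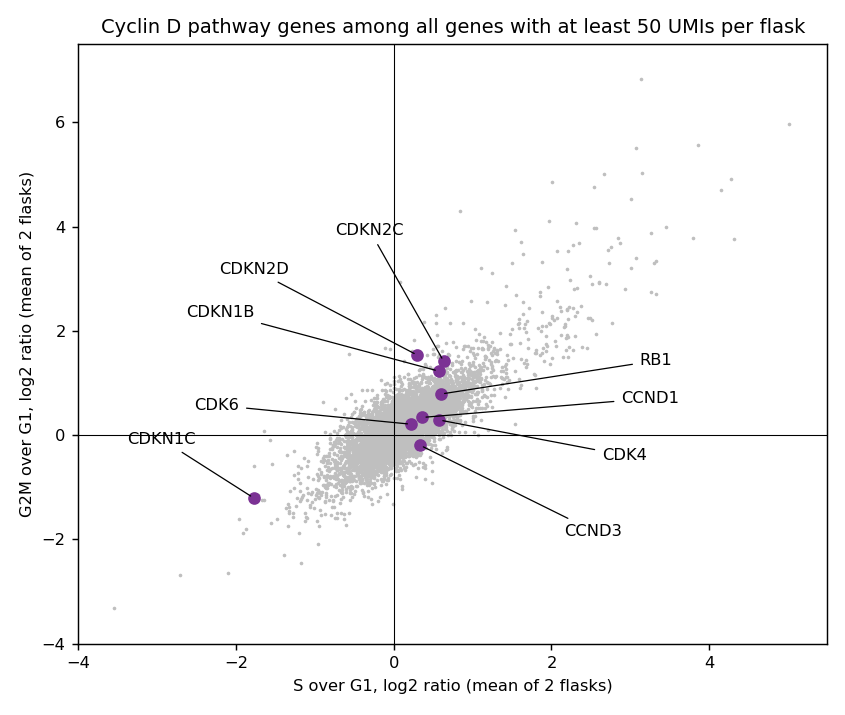
Log2 ratio of S to G1 (horizontal) and of G2M to G1 (vertical), each the mean of the 2 flasks, for genes outside the cycle list with at least 50 UMIs in each flask (grey) and the 9 detected genes (purple). CDKN1C lies in the lower left, CDKN2C, CDKN2D and CDKN1B lie above most of the cloud, and CCND1, CDK4, CDK6 and CCND3 lie within it.

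A second reading without phase calls compared the 25% of cells with the largest share of UMIs from the S genes with the 25% that had the smallest, and likewise for the G2M genes. Between the groups high and low in G2M genes, CDKN2C was 3.16 times as high in SplitA (2.42 to 4.18) and 3.30 times in SplitB (2.59 to 4.23), CDKN2D 2.52 and 3.57 times and CDKN1B 3.20 and 2.48 times, and RB1 had log2 ratios of 1.43 and 0.82. Between the groups high and low in S genes, the ratio of CDKN1C was 0.228 in SplitA (0.157 to 0.323) and 0.170 in SplitB (0.121 to 0.233). That of RB1 was 2.31 in SplitA (1.45 to 3.76) and 2.01 in SplitB (1.29 to 3.17). CCND1 had a ratio of 1.42 (1.29 to 1.56) and 1.83 (1.68 to 1.99) in the S reading and of 1.46 (1.33 to 1.60) and 1.53 (1.41 to 1.66) in the G2M reading, so it was past 1.5 in SplitB and not in SplitA. In SplitB the S ratios of CDKN1B (1.59, 1.06 to 2.40) and CDKN2D (1.78, 1.18 to 2.73), which passed in both flasks, were below that of CCND1, with overlapping intervals. CDK4 had 1.64 (1.36 to 1.98) and 1.45 (1.24 to 1.70) in the S reading. In each of the S and the G2M readings 4 of 9 genes were higher, against 15.6% and 19.3% of all genes, and 1 was lower, against 2.76% and 3.71%. The 4 genes were the same in both, CDKN1B, CDKN2C, CDKN2D and RB1. The 2 shares went together over cells. Divided at the medians, 347 SplitA cells were high in both shares and 102 in S genes only, and in SplitB 467 and 130. The S reading therefore does not cleanly separate S from G2M cells. The median log2 ratio of all genes was 0.21 and 0.20 in the S reading and 0.25 and 0.26 in the G2M reading. Relative to it, 3 of 9 genes were higher in each, against 9.57% and 10.5%, without CDKN1B in the S reading and without RB1 in the G2M reading. CDKN1C was the 1 lower gene of 9 in each, against 6.13% and 8.80%.

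When the cells of a flask were divided at the median of both shares, CDKN1C was highest in the cells low in both, with 106 CPM in SplitA and 125 CPM in SplitB. It had 36.4 and 49.8 CPM in cells high in S genes only, 40.3 and 35.9 CPM in cells high in both, and 81.7 and 59.0 CPM in cells high in G2M genes only. CDKN2C went the other way, from 50.4 and 49.3 CPM in cells low in both to 143 and 123 CPM in cells high in G2M genes only. CDK4 had 222 and 189 CPM in cells high in S genes only, and 214 and 189 CPM in cells high in both, against 148 and 144 CPM in cells low in both. Over single cells thinned to 2000 UMIs (898 of SplitA, 1193 of SplitB), Spearman's rho of CDKN1C UMIs with the share of S genes was -0.177 in SplitA and -0.184 in SplitB, and rho of CDKN2C UMIs with the G2M share was 0.181 and 0.156. These values describe sparse counts that share a library, and the rho of the other genes was closer to 0. With the G2M share it was 0.108 and 0.121 for CDKN2D, 0.105 and 0.067 for RB1, and only 0.079 and 0.021 for CDKN1B. CCND1 had 0.112 and 0.111 with the G2M share, and 0.110 and 0.126 with the S share.

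Co-detection of the genes was read against what depth gives. For each pair, the number of cells with UMIs of both genes was divided by the number that independent genes would give at the depth of each cell. CDK4 and CDK6 were found together in 406 SplitA cells, against 396 by depth (ratio 1.02, 0.928 to 1.13), and in 526 SplitB cells, against 516. Of the 36 pairs of the 9 genes, 0 were found together 1.5 times as often as by depth in both flasks and 0 were found at most 0.667 times as often. High detection limits this count, since a pair cannot be found in more cells than its rarer gene. The 21 pairs that hold CCND1, CDK4 or CDK6 could not have reached 1.5 in both flasks, and for CDK4 and CDK6 the highest possible ratio was 1.45 in SplitA and 1.43 in SplitB. Of the 36 pairs, 15 could have reached 1.5 and 31 could have reached 0.667. The ratios ran from 0.891 to 1.24 in SplitA and from 0.789 to 1.26 in SplitB, with medians of 0.995 and 0.988.

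CDKN1C and CDKN2C, inhibitors with opposite phases, were found together in 106 SplitA cells, against 115 by depth (ratio 0.921, 0.754 to 1.11). In SplitB they were found together in 132 cells, against 149 (0.886, 0.741 to 1.05). Both intervals include 1. CDKN1C and CDKN2D, also opposite in phase, had ratios of 1.13 (0.857 to 1.47) in SplitA and 1.04 (0.810 to 1.30) in SplitB. For CDKN1C and CDKN1B the ratios were 0.955 (0.709 to 1.26) and 0.789 (0.591 to 1.03). The intervals of these pairs also include 1. With cells thinned to 2000 UMIs, the odds ratio of CDKN1C and CDKN2C was 0.546 in SplitA and 0.601 in SplitB. These values rest on only 10 and 13 cells with both genes. That of CCND1 and CDKN1C was 0.656 and 0.622, from 63 and 78 such cells. No interval was computed for the odds ratios, so they do not show whether a pair departs from 1 beyond counting error. No other pair had an odds ratio at or under 0.667 in both flasks, and 0 pairs had one of 1.5 or more in both. RB1 and CDKN1B had ratios above 1 in both flasks, 1.16 (0.797 to 1.63) and 1.26 (0.917 to 1.68), with intervals that include 1. In all, 11 pairs were above 1 and 17 below 1 in both flasks.

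**Figure D5:**
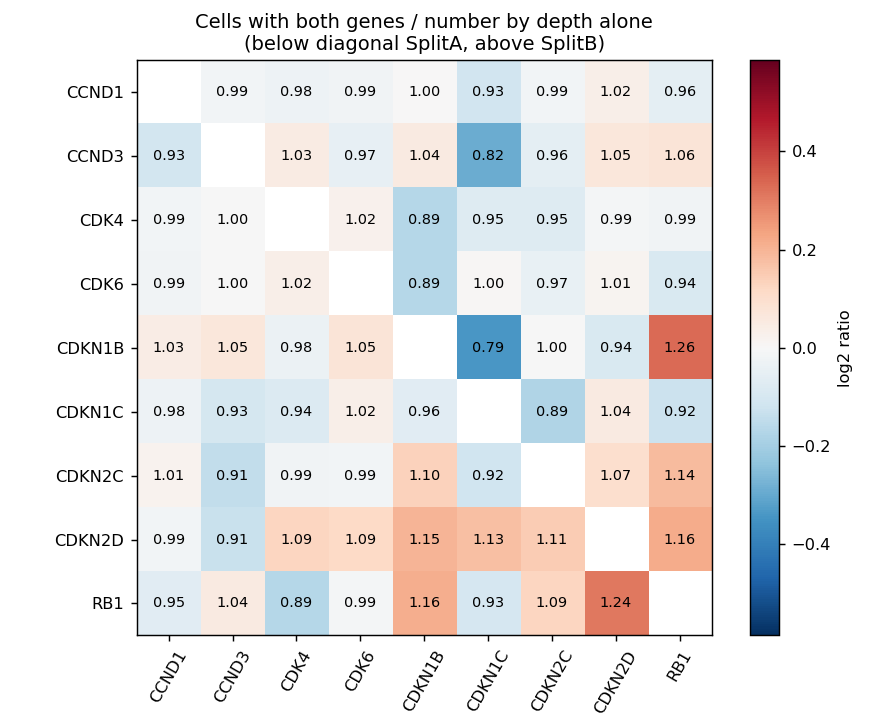
Number of cells with UMIs of both genes divided by the number that depth alone gives, for the 36 pairs of the 9 detected genes, with SplitA below and SplitB above the diagonal and color on a log2 scale that ends at 1.5-fold. The ratios range from 0.789 to 1.26, and most are near 1.

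Per cell, a median of 3 of the 10 genes had a UMI in both flasks, with at most 9. A D cyclin, a kinase and at least 1 of the 4 inhibitors were found together in 56.5% of SplitA cells (53.2% to 59.8%) and 54.2% of SplitB cells (51.4% to 57.1%). A D cyclin and a kinase without any of these inhibitors were found in 23.0% and 23.5% of cells, and a D cyclin without a kinase in 13.9% and 14.2%. Inhibitors of both families were found in 20.8% and 20.6% of cells. Singly, a D cyclin was found in 93.4% and 92.0% of cells, a kinase in 84.8% and 84.4%, and an inhibitor in 68.9% and 68.7%. The joint shares were not set against what independent detection gives. At this depth a cell without a UMI cannot be read as a cell without the RNA.

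The rest of the pathway was described by 30 genes, the cyclins E and A with CDK2 and the CDK-activating kinase, the other inhibitors, the other pocket proteins with the E2F and DP factors, and factors of protein turnover. Of the 30 genes, 20 had at least 50 UMIs in each flask, and CDKN2B, the neighbor of CDKN2A, had none. In S cells 11 of the 20 were 1.5-fold or more higher than in G1 cells in both flasks and 0 were lower, against 7.90% and 2.09% of all genes, and in G2M cells 9 were higher and 0 lower, against 11.8% and 3.73%. The median log2 ratio of the 20 genes was 1.21 and 0.79 in S cells, and that of all genes was 0.08 in both flasks. In G2M cells it was 1.009 and 0.60, and that of all genes was 0.15 and 0.12. CKS1B, 1 of the 20, is in the list that scored the phases.

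E2F1, the factor that RB1 holds, had 28.4 CPM in G1, 159.9 in S and 95.8 in G2M cells of SplitA, and 30.8, 149 and 94.4 CPM in SplitB. CCNE1, the cyclin that acts after the D cyclins, was higher in S cells, 3.09 times the G1 level in SplitA and 2.75 times in SplitB, and not in G2M cells, where the ratio was 1.32 and 1.02. CCNA2, the cyclin of S and G2 phase, was highest in G2M cells, with 57.6 and 71.1 CPM, against 2.58 and 2.96 CPM in G1 cells. The S to G1 ratio was 2.64 and 3.71 for CDK2, 3.71 and 5.88 for its activating phosphatase CDC25A, 10.1 and 9.02 for E2F2, 2.15 and 1.80 for E2F3, 2.495 and 1.67 for TFDP1, the DNA-binding partner of the E2F factors, and 2.65 and 2.76 for CUL1, a scaffold of ubiquitin ligases. SKP2, the ligase subunit that targets the CDKN1B protein, had 2.78 and 1.98, and CKS1B, its cofactor, 2.60 and 2.46. For some of these genes the G1 level rests on few UMIs. G1 cells had 7 and 14 UMIs of E2F2, 15 and 11 of CDC25A, 19 and 17 of CDK2, and 6 and 10 of CCNA2. The p53 target CDKN1A had 24.4 CPM in SplitA and 28.9 CPM in SplitB, and CDKN2A had 21.4 and 18.7 CPM. Neither was past the limit in S or G2M cells of both flasks. In SplitA alone, CDKN1A was lower in G2M than in G1 cells, with 14.0 CPM (9.14 to 20.5) against 30.5 CPM (23.9 to 38.5), a ratio of 0.458, whereas in SplitB the ratio was 0.810 (0.590 to 1.105).

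The genes most like each of 8 of the 10 in their values over cells were sought among 5191 genes found in at least 10% of the cells of both flasks, by Pearson's r of log-normalized values (LogNorm) over 899 and 1195 cells. The r values were low, and they are given as a description of counts that share a library and its depth. CDKN1C went with GNAS (r = 0.325 in SplitA and 0.312 in SplitB), DLK1 (0.243 and 0.276) and DDC (0.239 and 0.195), and CCND1 with TPM1 (0.267 and 0.314), CREB5 and TBX3. CDKN2C went with HMGB2 (0.260 and 0.235), GTSE1 and BIRC5, and CDKN2D with BIRC5 (0.190 and 0.234), CDKN3 and MKI67. For CDKN1B the genes were HMGB2, ANP32E and CRNDE, and for RB1 HMGB2, ANP32B and RABL6. For CDK4 they were EIF4EBP1, NDUFAF8 and SLIRP, and for CDK6 RPL22L1, CDK6-AS1 and RNF150. HMGB2, ANP32E, GTSE1, BIRC5 and MKI67 are in the cycle list, and CDK6-AS1 lies opposite CDK6.

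The cells under 1000 genes, which were left out, numbered 280 in SplitA and 410 in SplitB, with median depths of 1460.5 and 1355 UMIs and 31.9% and 35.3% of UMIs from mitochondrial genes. CCND1 had 819.9 CPM (735 to 912) and 719 CPM (651 to 791) there, and CDK6 164 CPM (127 to 208) and 185 CPM (152 to 224). CDKN2D was lower than in the kept cells, with 7.23 CPM (1.49 to 21.1) and 6.99 CPM (1.91 to 17.9), from 3 and 4 UMIs. CDK4 was also lower, with 137 CPM (104 to 178) and 96.2 CPM (72.4 to 125), from 57 and 55 UMIs. Its interval overlapped that of the kept cells in SplitA and not in SplitB. CDKN1C had 45.8 CPM (27.6 to 71.6) and 26.2 CPM (14.7 to 43.3). The part of mitochondrial RNA in these levels was not tested.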

How the data were processed

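RNA and hashtags of SH-SY5Y cells from 2 flasks were measured by CITE-seq with the 10x Genomics 3′ chemistry. The deposited values are UMI counts without normalization, which the authors made with Cell Ranger 4.0.0 and STAR 2.7 (per the submitters' processing notes) on GRCh38. Which annotation release was used is not given in the sources used here. Symbols came from a reference table that matched 33113 of the 33538 identifiers, gene positions from GENCODE on the same build, and promoters from RefSeq (GRCh38.p14).

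Cells were assigned to SplitA or SplitB by the hashtag limits of the study's code, which removed 95 multiplets of 2879 cells, and kept with at least 1000 genes. Multiplets within a flask carry 1 hashtag and were not removed, and no doublet caller was run. Depth is given with the report. Counts were summed over the cells of a class and scaled to CPM. Phases were scored with CellCycleScoring of Seurat 5.3.0 (R 4.3.3). LogNorm values used a scale factor of 10000. Genes with at least 50 UMIs in each flask entered the ratios, and a difference of 1.5-fold in both flasks was a limit of size, not a test. Sums, ratios and intervals were obtained in scipy 1.17.1 and numpy 2.4.6 under Python 3.11.15, with tables held in pandas 2.3.3 and plots drawn in matplotlib 3.10.9, and the steps were tested on simulated data.

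The genes, gene lists and limits were chosen with earlier results of these data known. Named genes are every gene of the set, the pathway genes past the limit in S or G2M cells of both flasks, and the 3 genes with the highest r for each gene of the set found in at least 10% of cells. CDKN1A, CDKN2A, CDKN2B and the marker genes at 0 were named after their values were seen. Alternatives concerned hashtag and gene limits, the limits of the study, depth, multiplets, scaling, mitochondrial genes, the cycle gene list, groups of cells by cycle gene share, count minimums and leaving out a flask.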

Additional observations from a re-analysis of the deposited data

Results flagged for a closer look

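The 73 cells with at least 1000 genes that carried both hashtags, or neither clearly, entered no comparison, and every gene of the set except CCND2 had a level in them above the 5.19 CPM that a count of 0 allows there. CCND1 had 666 CPM, CDK6 237 CPM, CDK4 144 CPM, CDKN2C 69.2 CPM and CDKN1C 64.0 CPM. CDKN2D had 32.9 CPM, CDKN1B and RB1 each had 31.2 CPM, and CCND3 had 8.65 CPM from 5 UMIs. These multiplets had a median of 7636 UMIs, and CCND2 had no UMI in them.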

How the results depend on the processing

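No setting reversed the direction of a log2 ratio to G1 that was past the limit in both flasks, over 160 such values. Only these ratios could be labeled as reversed, so the label says nothing of counts and other ratios. Of 116 counts of genes or pairs under alternatives, 97 were within 1.5 times the reported count. Of 480 log2 ratios of single genes, 454 moved by less than their counting error. Settings that changed only the minimum of UMIs left each ratio as it was. The ratios under these settings are among the 480 and the 160, and could neither move nor reverse. The count of genes higher in S than in G1 cells, reported as 0, was the least stable. It was 1 with a hashtag limit of 100 counts, with minimums of 500 or 1500 genes, with the limits of the study added, with the mean of scaled values per cell and without mitochondrial genes in the totals, 2 with multiplets added and with an updated cycle gene list, 4 by the share of cycle genes, and 2 without cells over 15000 UMIs, an alternative chosen after seeing the data. Calls in a single flask gave 2 without SplitA and 3 without SplitB. Genes found in at least 10% of cells went from 8 to 5 when cells were thinned to 2000 UMIs and at a limit of 20% of cells. Thinning also left 1 gene of 4 past the limit of spread (CCND1; CDKN2D also lost it at a minimum of 1500 genes and without cells over 15000 UMIs, where CDKN2C gained it), 2 of 4 higher in G2M cells (CDKN2C and RB1, while CDKN2D had too few UMIs to enter) and 1 pair found together at most 0.667 times as often as by depth (CDKN1C and CDKN2C), and the odds ratio on thinned cells gave 2 such pairs. On thinned cells CDKN1C and CDKN2C were found together in only 10 cells of SplitA and 13 of SplitB. A minimum of 200 UMIs left 1 gene higher in G2M cells (CDKN2C), since fewer genes entered. For CDKN2C the log2 ratio of G2M to G1 stayed between 1.38 and 1.70 in SplitA and between 1.27 and 1.72 in SplitB, and for CDKN1C that of S to G1 between -2.14 and -1.46 and between -2.56 and -1.77.

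No paired analysis was possible because no result came from a test and each flask is 1 sample. The ratio between flasks has no value without one of them. At this depth the scarcer genes mostly have 0 or 1 UMI in a cell, so that their absence in a cell, and differences under 1.5-fold in the sums of CCND3, CDKN1B, CDKN2D and RB1, could not be resolved.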
